A study of Mus musculus with 6 samples.

Results

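Imprinted genes are transcribed mainly or only from the copy inherited from a particular parent. Expression of 36 such genes, named from textbook knowledge of mouse imprinting, was followed in mouse ovaries that lacked the galactose enzyme GALT. All 36 symbols were found among the 55487 Ensembl genes of the count table, in 16 imprinted domains on 9 chromosomes. The samples were 3 GalTKO ovary samples, genotype GalT-/-, and 3 wildtype ovary samples as controls. The labels give 1 strain, cbl/6-ola/129, for all 6, and all mice were postnatal day 49 and had eaten chow with 2.5% galactose for 4 weeks from weaning. Galactose was therefore part of both groups, and no group without it was analysed here. Whether each sample came from its own animal is not in the labels; the p-values then reflect only sample-to-sample spread, which may be technical.

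The marks that set imprints are laid down as DNA methylation in the germ line, for the maternal copy during oocyte growth in the ovary. After fertilisation they are kept through rounds of genome-wide erasure, with the zinc finger protein ZFP57 and its cofactor TRIM28 holding methylation at imprinting control regions. Many domains pair protein-coding genes with a long noncoding RNA from the opposite parental copy, and several of these RNAs stay in the nucleus. The products act on growth and metabolism: IGF2 is a fetal growth factor, IGF2R removes it, GRB10 restrains insulin signalling, and DLK1 restrains fat cell formation. Counts per gene add both parental copies, so none of the values below measures which copy was read.

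Libraries held 19232486 to 25729564 counts, and 16957 genes passed the filter on low counts and were tested. Galt, the knocked-out gene, had 4, 6 and 0 counts in GalTKO replicates 1 to 3, against 445, 380 and 402 counts in wildtype replicates 1 to 3. All 10 oocyte and all 10 granulosa cell markers passed the filter and were tested. Mitochondrial genes took 2.22% to 3.53% of counts in GalTKO libraries and 1.37% to 1.97% in wildtype libraries. Ovgp1, an oviduct marker, carried nearly all of the 20.9 CPM (counts scaled to library size) of the oviduct list in wildtype replicate 2. That list summed to at most 1.40 CPM in the other libraries.

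Of the 36 imprinted genes, 30 were tested, and 2 of these 30 (6.67%) differed at an adjusted p under 0.05: the noncoding RNAs Rian and Mirg of the Dlk1-Meg3 domain, both higher in GalTKO ovaries. Of all genes tested, 2.55% were called in either direction and 1.13% were called higher. None of the 23 tested protein-coding members was called. The median log2 fold change was 0.23 over the 30 genes, against 0.02 over all genes, and ran from -0.44 to 2.33. Positive values were found for 21 of 30 imprinted genes (70.0%) and for 53.4% of all genes. The 3 values of one genotype lay wholly above those of the other for 7 of 30 (23.3%), close to the 23.7% of all genes, so that count does not set the imprinted genes apart. Before adjustment, p was under 0.05 for 8 of 30 (26.7%), and for 17.1% of all genes. The other 6 listed genes had too few counts, and the median was 0.11 without GalTKO replicate 2.

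**Figure D1:**
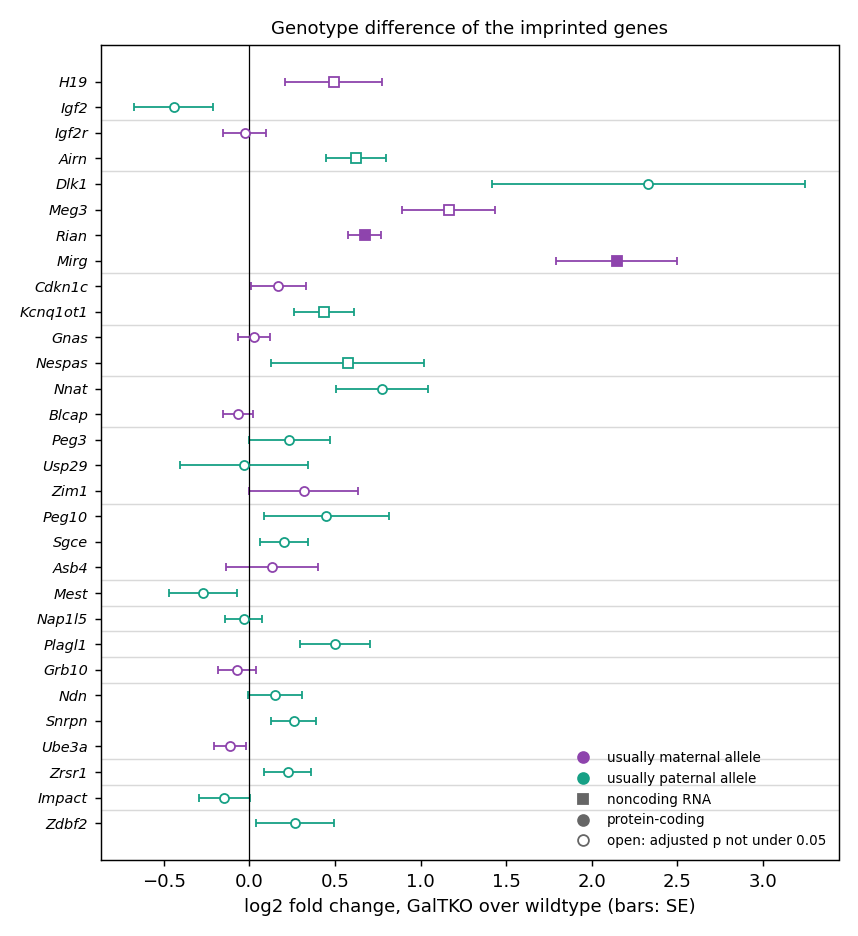
Log2 fold change of GalTKO over wildtype for the 30 imprinted genes tested, each with its standard error and grouped by domain. Values run from -0.44 (Igf2) to 2.33 (Dlk1), and the called genes Rian and Mirg stand at 0.67 and 2.15.

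The Dlk1-Meg3 domain of chromosome 12 held both called genes. From its maternal copy, Meg3, Rian and Mirg are read in the same direction as a string of noncoding RNAs. Rian is the host of a cluster of C/D box small nucleolar RNAs, and Mirg is the host of part of a large microRNA cluster. The RefSeq table placed 54 plus-strand microRNA hairpins between the start of Meg3 and the end of Mirg on GRCm38.p6, 14 of them inside Mirg. These hairpins give 105 named mature microRNAs with 97 distinct seeds, the bases 2 to 8 that pair with targets. A seed was shared for 8 sets covering 16 of the mature microRNAs. The microRNAs below, all from the plus strand of Mirg, show what the higher host transcript encodes, with the seed in capitals. Their own mature levels were not measured by these libraries.
miR-382-5p: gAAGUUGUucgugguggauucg
miR-134-5p: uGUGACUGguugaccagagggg
miR-154-5p: uAGGUUAUccguguugccuucg
miR-377-3p: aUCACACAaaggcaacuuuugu
miR-409-3p: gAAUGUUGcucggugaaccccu
miR-369-3p: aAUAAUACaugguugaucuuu
miR-410-3p: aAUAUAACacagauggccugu

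The next sequences are sets with a shared seed, shown because their capitals are identical. miR-453 and miR-496a-5p both lie in Mirg. miR-410-5p lies in Mirg too, while miR-494-5p lies upstream between Rian and Mirg. No other mature microRNA of Mirg had a seed that recurs in the cluster.
miR-453: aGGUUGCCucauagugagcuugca
miR-496a-5p: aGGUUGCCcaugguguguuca
miR-410-5p: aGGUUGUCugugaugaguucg
miR-494-5p: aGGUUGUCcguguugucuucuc

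Rian (ENSMUSG00000097451; GRCm38 chr12:109603940-109661716, plus strand) had 42.7, 46.6 and 44.1 CPM in GalTKO replicates 1 to 3, against 26.6, 26.6 and 30.4 CPM in wildtype replicates 1 to 3. Every GalTKO library lay above every wildtype library, and the spread within each genotype was narrow. The log2 fold change was 0.67 ± 0.10 (SE, 3 libraries each; adjusted p = 0.0114 over all genes by edgeR's quasi-likelihood test with Benjamini-Hochberg adjustment), a 1.59-fold higher level. The call was lost without wildtype replicate 1 (adjusted p = 0.0679) and without wildtype replicate 2 (adjusted p = 0.0809), while the log2 fold change stayed between 0.63 and 0.74.

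Mirg (ENSMUSG00000097391; chr12:109729764-109749460, plus strand) had 3.56, 2.20 and 5.05 CPM in GalTKO replicates 1 to 3, against 0.920, 0.761 and 0.736 CPM in wildtype replicates 1 to 3. The groups were far apart, but the GalTKO libraries differed among themselves more than 2-fold, and the wildtype values rest on 23, 18 and 17 counts. The log2 fold change was 2.15 ± 0.35 (SE; adjusted p = 0.0212 by the same edgeR test), a 4.43-fold higher level. The call was lost without GalTKO replicate 1 (adjusted p = 0.0547) and without wildtype replicates 1, 2 or 3 (adjusted p = 0.0793, 0.102 and 0.0906).

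Meg3 (chr12:109541001-109571726, plus strand), the first RNA of the string, had 9.68, 7.29 and 15.4 CPM in GalTKO libraries and 4.16, 5.29 and 4.94 CPM in wildtype libraries. The groups did not overlap, and GalTKO replicate 3 was the highest. Its log2 fold change of 1.16 ± 0.27 missed the threshold (adjusted p = 0.0719), and passed it without GalTKO replicate 2 (adjusted p = 0.0174). DESeq2 (adjusted p = 0.0019) and limma voom (adjusted p = 0.0347) called it.

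Dlk1 (chr12:109452823-109463336, plus strand), the paternally expressed coding gene upstream of Meg3, was carried by a single library. Its values were 2.55, 16.9 and 1.87 CPM in GalTKO replicates 1 to 3, against 1.16, 1.86 and 1.21 CPM in wildtype replicates 1 to 3. GalTKO replicate 2 lay far above all others, and GalTKO replicate 3 lay only just above the highest wildtype library. The log2 fold change of 2.33 ± 0.92 did not pass (adjusted p = 0.275), and without GalTKO replicate 2 it was 0.66. Rtl1, a retrotransposon-derived gene of the placenta, had only 14, 3 and 8 counts in GalTKO libraries, against 5, 3 and 0 in wildtype libraries, and was not tested.

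Between Rian and Mirg, a pair of further plus-strand transcripts passed the filter. Gm37899 had 43, 34 and 54 counts in GalTKO libraries and 13, 27 and 12 in wildtype libraries (log2 fold change 1.43 ± 0.42, edgeR adjusted p = 0.139). B830012L14Rik, a lincRNA, had 53, 34 and 84 counts in GalTKO libraries and 27, 32 and 25 in wildtype libraries (1.15 ± 0.42, adjusted p = 0.216). Neither passed, and both were higher in every GalTKO library than in every wildtype library.

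The small RNA genes of the string were almost empty. Of 59 annotated plus-strand microRNA genes from Meg3 to Mirg, 35 had any count and none was tested. Together they held 28, 30 and 21 counts in GalTKO libraries, against 10, 18 and 7 in wildtype libraries. The 23 annotated snoRNA genes held 12, 7 and 11 counts in GalTKO libraries and 2, 3 and 8 in wildtype libraries, from 8 of the genes. Such reads cannot be told apart from reads of the host transcripts.

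At the far end of the domain, Dio3, which encodes the deiodinase that inactivates thyroid hormone, pointed the other way. It had 3.06, 3.41 and 1.61 CPM in GalTKO libraries, against 4.80, 5.03 and 4.42 CPM in wildtype libraries (log2 fold change -0.81 ± 0.28, edgeR adjusted p = 0.196). Its neighbour Dio3os averaged 1.05 ± 0.13 CPM in GalTKO libraries and 1.87 ± 0.152 CPM in wildtype libraries (SD, n = 3 each; log2 fold change -0.83 ± 0.26, adjusted p = 0.158). Every GalTKO value of both genes lay below every wildtype value, and neither passed the test.

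**Figure D2:**
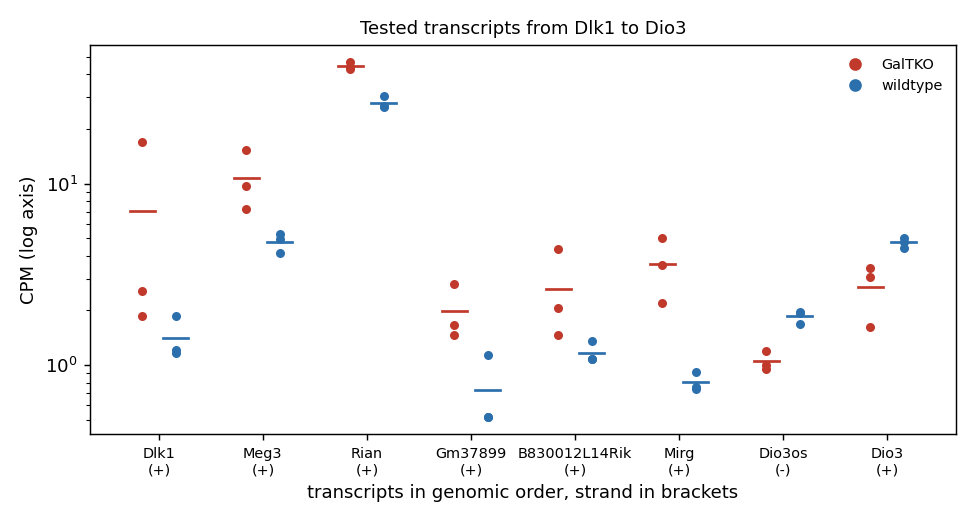
CPM per library on a log axis for the 8 tested plus-strand and minus-strand genes of the Dlk1-Dio3 region in genomic order, GalTKO left of wildtype. The transcripts from Meg3 to Mirg lie higher in GalTKO libraries, Dio3os and Dio3 lie lower, and Dlk1 is set by GalTKO replicate 2.

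Promoter windows of RefSeq on GRCm38.p6, 250 bases before to 50 after each start, were given for 29 of the 36 genes, in 44 entries. H19, Rtl1, Peg10, Sgce, Cdkn1c, Nespas and Impact had none. The letters TGCCGC, the core that ZFP57 binds when methylated, were searched on both strands and found in 12 of 44 windows (27.3%). The share was 11.6% of 32851 windows of all genes. Snrpn and Snurf share an identical window with the hexamer, and a pair of Mest windows with it nearly coincides. The 12 therefore count some sequence more than once, and such repeats were not counted among all genes. The letters GCCATNTT, a YY1 core, were found in 1 window, that of Ube3a (2.27%), against 6.05% of all windows. The windows differed in CpG content, with a median of 13 CpG among imprinted genes and 7 among all. The 3 windows below are those of the string of noncoding RNAs, shown because they differ so widely. The Meg3 window holds 13 CpG and 1 hexamer, read from the minus strand as the capitals GCGGCA. The Rian window holds 0 CpG and no hexamer. The Mirg window holds 10 CpG, and its RefSeq start lies inside the GENCODE gene, so it overlaps microRNA hairpins and need not be where transcription begins. They span chr12:109540746-109541045, chr12:109603695-109603994 and chr12:109734731-109735030, all on the plus strand. A match is a description of the letters only.
Meg3: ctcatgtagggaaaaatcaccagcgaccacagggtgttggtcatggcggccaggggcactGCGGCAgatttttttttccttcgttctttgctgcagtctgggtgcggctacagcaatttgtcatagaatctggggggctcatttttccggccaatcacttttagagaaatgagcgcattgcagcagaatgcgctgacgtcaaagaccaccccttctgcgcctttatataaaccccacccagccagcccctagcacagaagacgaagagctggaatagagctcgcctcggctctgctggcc
Rian: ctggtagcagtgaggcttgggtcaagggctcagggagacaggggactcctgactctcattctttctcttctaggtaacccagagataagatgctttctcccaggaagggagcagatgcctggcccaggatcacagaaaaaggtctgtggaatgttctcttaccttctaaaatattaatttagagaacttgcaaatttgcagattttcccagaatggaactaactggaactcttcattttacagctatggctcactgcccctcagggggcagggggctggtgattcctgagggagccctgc
Mirg: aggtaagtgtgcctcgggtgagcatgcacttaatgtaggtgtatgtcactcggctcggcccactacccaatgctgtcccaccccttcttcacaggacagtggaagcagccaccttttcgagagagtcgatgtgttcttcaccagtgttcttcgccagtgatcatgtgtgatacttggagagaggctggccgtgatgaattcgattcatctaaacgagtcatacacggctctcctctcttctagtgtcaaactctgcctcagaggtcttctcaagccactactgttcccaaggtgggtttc

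The tested members included 7 noncoding RNAs: Meg3, Rian and Mirg of this domain, and H19, Airn, Kcnq1ot1 and Nespas of others. All 7 had positive log2 fold changes, with a median of 0.62, and the 2 called were Rian and Mirg. None of those outside the domain was called. The shared sign holds for the listed 7 and not for every imprinted noncoding RNA. Snhg14 and Peg13, from the list of other imprinted genes, had -0.42 ± 0.31 and -0.06 ± 0.13. Dio3os was negative too, while B830012L14Rik and Gm37899 were positive. In 5 of 7, every GalTKO library lay above every wildtype library, against 11.8% of the 1111 lncRNA genes tested. Outside the domain these were Airn and Kcnq1ot1. The others, Meg3, Rian and Mirg, are read as a string and are not independent, so the 5 cannot be weighed as separate genes against that share. The median over those lncRNA genes was 0.10, and 2.34% of them were called. Among the 23 tested coding members 14 were positive, with a median of 0.15.

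Airn, the paternal antisense RNA that silences Igf2r in cis, had 5.57, 5.61 and 5.93 CPM in GalTKO libraries, against 3.32, 4.06 and 3.73 CPM in wildtype libraries. The groups were separate and tight. Its log2 fold change was 0.62 ± 0.18 (SE; edgeR adjusted p = 0.123), short of the threshold. Kcnq1ot1, the paternal RNA that silences the Cdkn1c cluster, had 77.6, 71.7 and 117 CPM in GalTKO libraries, against 64.8, 66.8 and 65.5 CPM in wildtype libraries. GalTKO replicate 3 alone accounted for most of the distance, and the fold change of 0.43 ± 0.18 did not pass (adjusted p = 0.266). H19, the maternal RNA that is the precursor of miR-675, had 25.7, 44.6 and 21.1 CPM in GalTKO libraries and 22.2, 17.7 and 25.2 CPM in wildtype libraries. Its groups overlapped, GalTKO replicate 2 was the highest, and the fold change was 0.49 ± 0.28 (adjusted p = 0.439). The Mir675 gene itself had 0 counts in every library. It shares 84 bases with H19 exons on the same strand, so its reads cannot be told apart from those of H19. The 0 therefore does not measure its level. Nespas, the paternal antisense RNA at Gnas, overlapped between groups at 1.12, 0.863 and 1.98 CPM in GalTKO libraries and 0.800, 1.31 and 0.520 CPM in wildtype libraries (0.57 ± 0.45, adjusted p = 0.572). Of its exonic bases 38.5% are shared with genes on the opposite strand.

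Nuclear RNAs in general were set beside these values, as a list of 7 chosen after values were seen, of which Kcnq1ot1 and Airn are members. Malat1 had 4537, 3574 and 7751 CPM in GalTKO libraries, against 3942, 4425 and 4373 CPM in wildtype libraries (log2 fold change 0.32 ± 0.27, edgeR adjusted p = 0.607). Xist had 341, 312 and 437 CPM in GalTKO libraries, against 271, 283 and 240 CPM in wildtype libraries (0.46 ± 0.14, adjusted p = 0.139). Of the 7, 6 were positive and 0 were called, with a median of 0.36. The negative one was Snhg14, itself imprinted. Without adjustment, 3 had p under 0.05: Xist and the members Kcnq1ot1 and Airn. These counts therefore partly repeat the values of the imprinted genes they are set beside. Within GalTKO, replicate 3 was the highest library for Malat1, Xist, Meg3, Mirg and Kcnq1ot1, and it also had the highest mitochondrial share and the lowest total. The part of these library properties in the noncoding RNA values was not tested. For Rian, replicate 3 lay between the other GalTKO libraries, and the log2 fold change without it was 0.68. Without replicate 3 the log2 fold change was 1.83 for Mirg and 0.82 for Meg3.

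**Figure D3:**
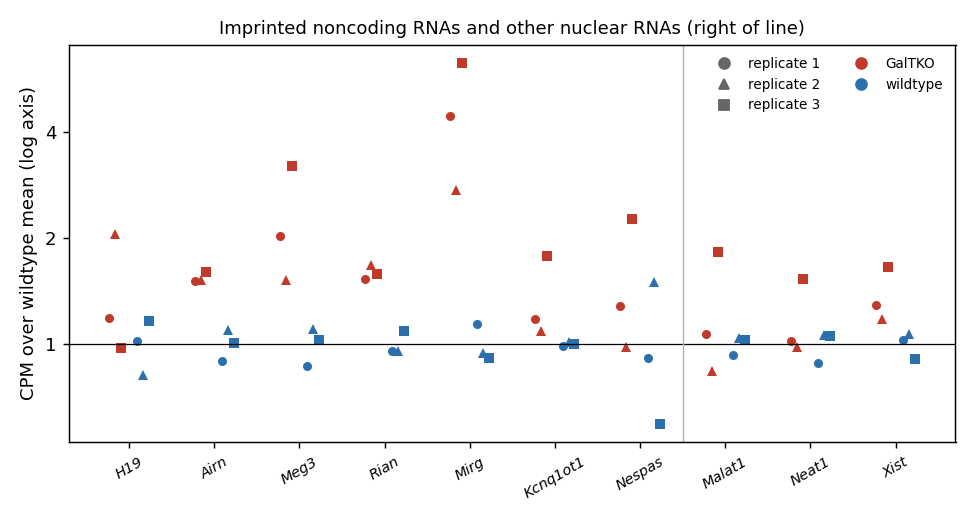
CPM per library divided by the wildtype mean of the gene, on a log axis, GalTKO left of wildtype. Shown are the 7 noncoding imprinted RNAs and the nuclear RNAs Malat1, Neat1 and Xist. Airn, Meg3, Rian, Mirg and Kcnq1ot1 do not overlap between genotypes, and neither does Xist, while Malat1, Neat1, H19 and Nespas do.

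Of the 30 tested imprinted genes, Igf2 alone had all GalTKO libraries below the wildtype libraries, a pattern shown by 12% of all genes. It had 1.78, 1.94 and 1.61 CPM in GalTKO libraries, against 2.60, 2.16 and 2.51 CPM in wildtype libraries (log2 fold change -0.44 ± 0.23, edgeR adjusted p = 0.382). The separation was small, and 62.8% of its exonic bases are shared with the readthrough gene Gm49394 on the same strand, which had at most 1 count in a library. How reads of shared bases were counted was not given, so the level of Igf2, also in its ratio to H19, is uncertain. Igf2r had 157, 210 and 169 CPM in GalTKO libraries, against 173, 171 and 203 CPM in wildtype libraries, and its fold change of -0.03 ± 0.13 was within its error of 0 (adjusted p = 0.938). Grb10, the adaptor that dampens insulin and IGF receptors, averaged 129 ± 18.7 CPM in GalTKO libraries and 136 ± 3.83 CPM in wildtype libraries (SD; -0.07 ± 0.11).

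Of 18 tested genes of the wider IGF pathway (21 listed), 0 were called by edgeR, against 2.55% of all genes. Before adjustment, p was under 0.05 for 3 (16.7%), close to the 17.1% of all genes, so these counts do not set the pathway apart. DESeq2 called 2 and limma voom 1, the insulin receptor gene Insr in both. The median of the 18 log2 fold changes was -0.09. Insr had 143, 150 and 151 CPM in GalTKO libraries, against 184, 191 and 217 CPM in wildtype libraries. It was lower in every GalTKO library and just missed the threshold (-0.42 ± 0.09, adjusted p = 0.0505 by edgeR), but passed it with DESeq2 (adjusted p = 0.00584), limma voom (0.0434), no low-count filter (0.0115) and without GalTKO replicate 2 (0.0499). Igfbp3, a carrier of IGFs, had a fold change of -1.02 ± 0.33 (adjusted p = 0.199). Pappa2, a protease that frees IGFs from their carriers, had 2.69 ± 1.01 (adjusted p = 0.255), with 11.7 CPM in GalTKO replicate 2, the library that was also highest for Dlk1.

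Nnat and Plagl1 were the coding members besides Dlk1 with an unadjusted p under 0.05. Nnat, a small membrane proteolipid, had 103, 51.0 and 92.3 CPM in GalTKO libraries, against 49.9, 55.2 and 38.9 CPM in wildtype libraries. GalTKO replicate 2 fell among the wildtype values, the other GalTKO libraries above them. The fold change of 0.78 ± 0.27 did not pass (edgeR adjusted p = 0.218), but did without GalTKO replicate 2 (adjusted p = 0.00967) and with DESeq2 (adjusted p = 0.0335). Blcap, listed as maternally expressed and with Nnat in its intron, averaged 43.1 ± 2.58 CPM in GalTKO libraries and 45.1 ± 1.01 CPM in wildtype libraries (-0.07 ± 0.09). Plagl1, a zinc finger transcription factor that restrains proliferation, had 97.6, 155 and 108 CPM in GalTKO libraries, against 101, 85.9 and 68.4 CPM in wildtype libraries (0.50 ± 0.20, adjusted p = 0.278). Its groups overlapped at their nearest values.

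The retrotransposon-derived Peg10 was among the most abundant members and varied widely within each genotype. It had 294, 467 and 214 CPM in GalTKO libraries and 307, 259 and 148 CPM in wildtype libraries (0.45 ± 0.37, edgeR adjusted p = 0.602). Its neighbours Sgce, a sarcoglycan, and Asb4, a ubiquitin ligase adaptor, had fold changes of 0.20 ± 0.14 and 0.13 ± 0.27. Peg3, a zinc finger protein, had 45.6, 71.6 and 35.1 CPM in GalTKO libraries, against 43.3, 43.3 and 43.1 CPM in wildtype libraries (0.23 ± 0.24). Wildtype libraries of Peg3 were nearly equal, and the GalTKO libraries spread to both sides of them. The zinc finger gene Zim1 and the ubiquitin protease gene Usp29 of the same domain stayed near 1 CPM, with fold changes of 0.32 ± 0.32 and -0.03 ± 0.37.

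The remaining tested members lay within 0.30 of 0 on the log2 scale and none had an unadjusted p under 0.05. Cdkn1c, the cyclin-dependent kinase inhibitor of the Kcnq1ot1 cluster, had 13.5, 15.9 and 10.8 CPM in GalTKO libraries, against 11.1, 13.03 and 11.7 CPM in wildtype libraries (0.17 ± 0.16). Gnas, the stimulatory G protein subunit through which FSH and LH receptors signal, averaged 941 ± 47.7 CPM in GalTKO libraries and 924 ± 31.8 CPM in wildtype libraries (0.03 ± 0.09). Mest, of the hydrolase fold family, had -0.27 ± 0.20, and Impact, a regulator of the GCN2 stress kinase, -0.15 ± 0.15. In the Prader-Willi and Angelman region, the MAGE family gene Ndn had 0.15 ± 0.16 and the spliceosome gene Snrpn 0.26 ± 0.13. The ubiquitin ligase gene Ube3a, listed as maternally expressed, had -0.11 ± 0.09. Of the exonic bases of Snrpn, 27.3% are shared with Gm38393 or Snurf on the same strand. The splicing-related gene Zrsr1, the nucleosome assembly gene Nap1l5 and Zdbf2 had 0.22 ± 0.14, -0.03 ± 0.11 and 0.27 ± 0.23. An adjusted p over the threshold does not show that these genes were alike between genotypes.

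Besides Rtl1, 5 members were not tested for lack of counts. Phlda2 and Ascl2, both known from the placenta, had 4 and 7 counts over the GalTKO libraries and 4 and 10 over the wildtype libraries. Slc22a18, a transporter gene, had 20 counts over GalTKO and 18 over wildtype libraries. Magel2 had 1, 6 and 0 counts in GalTKO libraries and none in wildtype libraries. Snurf had 0 counts everywhere, and all 216 of its exonic bases are shared with Snrpn on the same strand, so its reads cannot be told apart from those of Snrpn.

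Per kilobase of exon, levels spanned a wide range. Nap1l5 (88.3 RPKM in GalTKO and 90.4 in wildtype) and Gnas (84.1 and 82.6) were highest and did not differ in order beyond their spread, followed by Peg10 (48.8 and 35.7) and Nnat (44.9 and 26.2). Rian (2.44 and 1.53), Meg3 (0.596 and 0.265) and Mirg (0.494 and 0.111) stood low, at ranks 20, 24 and 27 of 36. These levels are CPM divided by the length of annotated exon in kilobases.

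**Figure D4:**
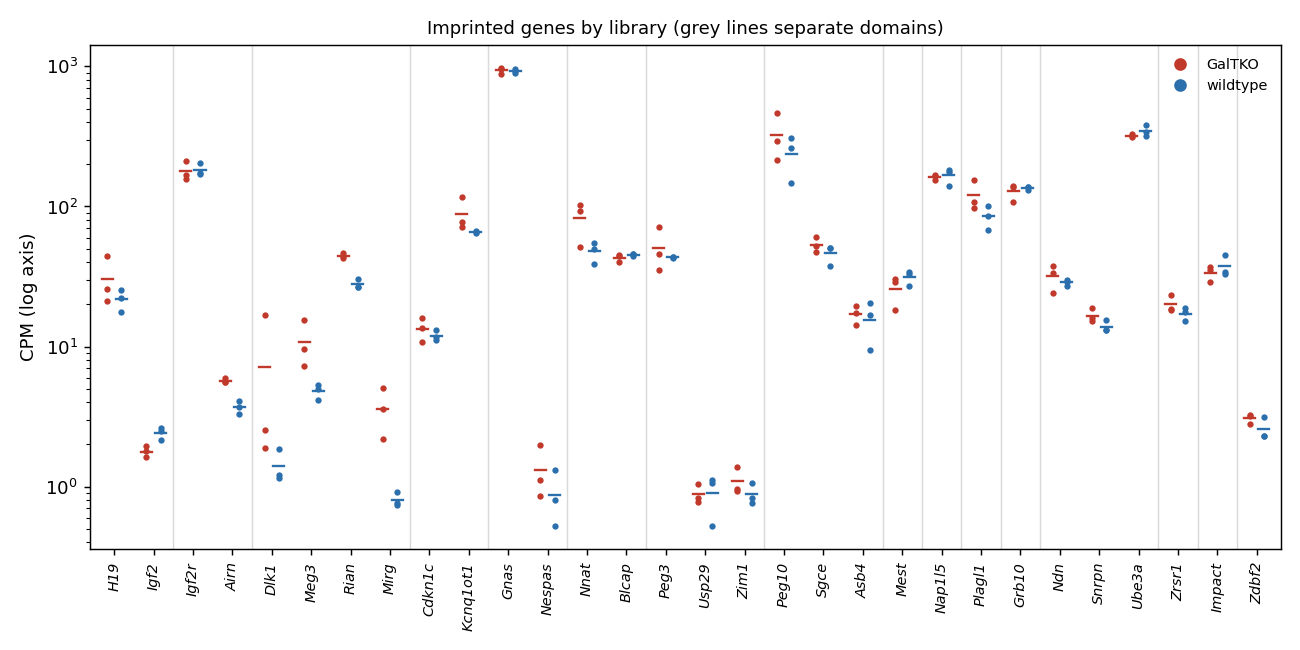
Level of each of the 30 tested imprinted genes in CPM on a log axis, 1 point per library with the mean as a line, GalTKO left of wildtype. Gnas is highest, with means of 941 CPM in GalTKO and 924 CPM in wildtype, and Rian and Mirg are separate between genotypes.

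The highest values were not spread evenly over the libraries. Of the 30 tested members, 12 had their highest value in GalTKO replicate 2, among them Dlk1, H19, Peg3, Peg10, Plagl1, Cdkn1c and Ndn. Another 6, among them Meg3, Mirg, Airn and Kcnq1ot1, had it in GalTKO replicate 3. Summed stromal markers (8 genes, all with counts) were 3473, 5447 and 2906 CPM in GalTKO replicates 1 to 3, against 4186, 3992 and 3775 CPM in wildtype replicates 1 to 3. GalTKO replicate 2 was therefore also the highest in summed stromal markers. Tcf21 alone of that list had its lowest value there, and each other stromal marker its highest. In summed surface epithelium markers GalTKO replicate 2 was highest too, at 186 CPM against 111 to 134 CPM in the other libraries. Whether these cells contribute to the values of Dlk1, H19 and Peg3 in that library was not tested. In whole ovary, fewer cells of a type and less RNA per cell cannot be told apart.

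Markers of other cells also differed between the genotypes. Over all genes tested, 1.13% were called higher and 1.43% lower. Surface epithelium markers had positive log2 fold changes in 8 of 8, with a median of 0.34 and 1 (Krt8) called higher, and summed to 111 to 186 CPM in GalTKO libraries and 113 to 116 CPM in wildtype libraries. Of 10 granulosa markers, Amh was called higher and Nr5a2 lower, and their sum overlapped between genotypes. Macrophage markers summed to 256 to 280 CPM in GalTKO libraries and 388 to 460 CPM in wildtype libraries, with 4 of 8 called lower. Luteal markers summed to 9515 to 14544 CPM in GalTKO libraries and 15463 to 20715 CPM in wildtype libraries, with 1 of 8 (Star) called lower. The luteal markers did not all move together. Of the 8, 7 had negative log2 fold changes, but Ptgfr was at -0.03 ± 0.51 and Akr1c18 at 0.53 ± 0.92. Endothelial markers summed to 418 to 461 CPM in GalTKO libraries and 510 to 652 CPM in wildtype libraries, with 2 of 7 called lower. Adipocyte markers summed to 40.4 to 54.2 CPM in GalTKO libraries and 21.1 to 24.0 CPM in wildtype libraries, nearly all of it Plin1. Of the 6, only Plin1, called higher, and Fabp4, at a log2 fold change of -0.08, were tested, with Lep at 0 in all libraries and Adipoq at 1 count over all 6. The part of these differences in the values of Rian, Mirg and the other members was not tested.

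Partner genes of a domain were compared within each library, for 9 pairs. The value was the log2 ratio of the gene listed as maternally expressed to the gene listed as paternally expressed. Which copy was read in these ovaries was not measured. The exact two-sided permutation test of 3 against 3 libraries cannot give a p below 0.1. H19 over Igf2 was 3.85, 4.52 and 3.71 in GalTKO libraries, against 3.09, 3.03 and 3.33 in wildtype libraries, a difference of 0.88 (exact p = 0.1, adjusted over 9 pairs p = 0.225). Igf2r over Airn differed by -0.66, Blcap over Nnat by -0.80 and Ube3a over Snrpn by -0.37, each with the same exact p. Meg3 over Dlk1 was 1.92, -1.21 and 3.03 in GalTKO libraries, against 1.84, 1.51 and 2.03 in wildtype libraries, a difference of -0.54 (exact p = 0.9). That difference was 0.69 without GalTKO replicate 2, so its direction rests on that library.

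**Figure D5:**
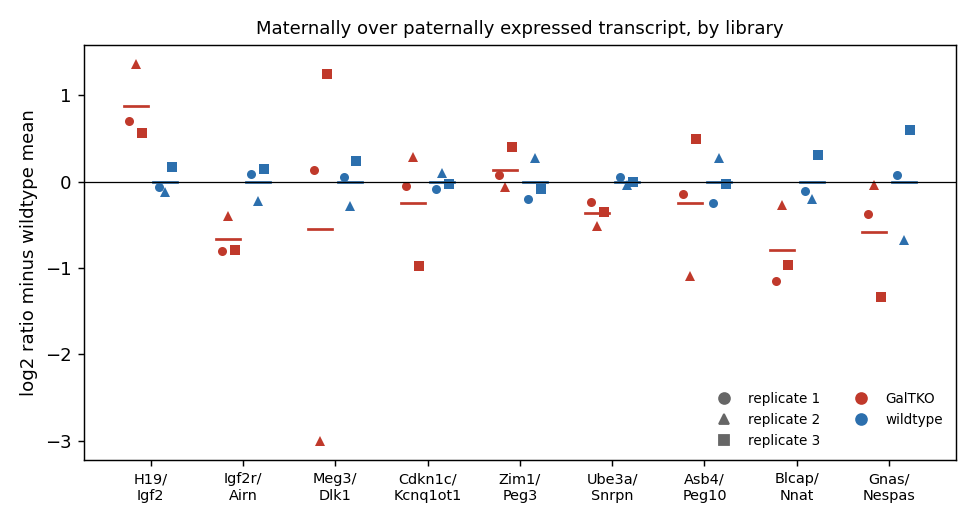
Log2 ratio of the gene listed as maternally expressed to that listed as paternally expressed, minus the wildtype mean of the pair. The 9 domain pairs have 1 point per library, GalTKO left of wildtype. H19 over Igf2 is higher in all GalTKO libraries, and Igf2r over Airn, Ube3a over Snrpn and Blcap over Nnat are lower.

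Split by the parental copy listed as usually read, 12 tested genes were maternal with a median log2 fold change of 0.15. Of these, 2 (16.7%) were called by edgeR, against 2.55% of all genes. Both, Rian and Mirg, belong to the same string, so the calls do not set maternal genes apart from paternal ones. The 18 paternal genes had a median of 0.25, and none was called by edgeR, though DESeq2 called Nnat. Without adjustment, the edgeR p was under 0.05 for 5 of the 18 (27.8%). That share was 25.0% of the maternal genes and 17.1% of all genes. The spread between libraries of a genotype was a median of 1.36-fold in GalTKO and 1.25-fold in wildtype, and wider in GalTKO for 19 of 30 genes, against 65.0% of all genes. The share of all genes was taken after adding 0.1 CPM to each value, and the count of imprinted genes without it.

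A second list of 46 other imprinted genes, of which 36 were tested, had a median log2 fold change of -0.02. By edgeR 0 were called, with p under 0.05 before adjustment for 8 (22.2%), against 17.1% of all genes. DESeq2 called 2. The serotonin receptor gene Htr2a came nearest, at -1.43 ± 0.30 (adjusted p = 0.0515), followed by the amino acid transporter gene Slc38a4 at 0.65 ± 0.18 (adjusted p = 0.124) and H13 at -0.34 ± 0.10 (adjusted p = 0.126). Of 30 tested genes that set or keep imprints (31 listed), 1 (3.33%) was called, close to the 2.55% of all genes. Hells, a chromatin remodeller needed for DNA methylation, had 54.6, 47.4 and 53.7 CPM in GalTKO libraries, against 37.3, 35.5 and 33.5 CPM in wildtype libraries (0.55 ± 0.09, adjusted p = 0.0257). Its groups were well apart, but the call was lost when GalTKO replicate 1 or 3 or any wildtype library was left out, with an adjusted p of up to 0.116. Ooep of the oocyte maternal complex had -0.50 ± 0.17 (adjusted p = 0.186), Dnmt3l, the cofactor of imprint methylation in the oocyte, 0.72 ± 0.36 (adjusted p = 0.358), and Zfp57 0.24 ± 0.13 (adjusted p = 0.396).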

How the data were processed

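Ovary RNA was depleted of ribosomal RNA with Ribo-Zero Gold and made into stranded total RNA libraries, per the labels' protocols. The authors deposited raw counts per Ensembl gene, not normalized. STAR 2.7.6a, featureCounts 1.6.3, cutadapt 1.16 and DESeq2 1.30.1 were used on GRCm38, per the submitters' processing notes. The strand setting and the handling of overlapping or multiply placed reads were not given in the sources used here. Reads of overlapping genes, also on opposite strands, therefore cannot be told apart. Total RNA counts include unspliced and nuclear RNA.

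Of 55487 identifiers 55227 matched GENCODE M21, and the other 260 held 0.00307% of counts. All 6 libraries were fitted in R 4.3.3 with edgeR 4.0.16 (TMM, filterByExpr with minimum count 10 and total 15, robust quasi-likelihood, genotype only), and adjusted p-values are Benjamini-Hochberg over all 16957 genes tested. Libraries were distinct beyond sampling noise. Ratios used exact permutation. Alternatives were DESeq2 1.42.0, limma voom 3.58.1, other scalings and filters, a replicate block and leaving out each library. The imprinted genes, the other lists and the tests were chosen with earlier results of these data known. The named genes are all 36 imprinted genes and, from the lists of other imprinted, imprint-setting and IGF pathway genes, those called plus up to 3 with the smallest p, and called genes within 250 kb. Cell markers are given as sums and counts. Other genes named, such as nuclear RNAs, single markers, host genes and Dlk1-Dio3 neighbours, were chosen after their values were seen.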

Additional observations from a re-analysis of the deposited data

How the results depend on the processing

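Over all genes, 433 were called by edgeR, 1019 by DESeq2, 877 without the low-count filter, 761 at an adjusted p of 0.1, and 165 to 742 with a library left out, the highest without GalTKO replicate 2. Of the imprinted genes 2 were called, 4 by DESeq2 and 0 to 4 with a library left out. Rian was called in 12 of 14 fits (adjusted p 2.13e-05 to 0.0809) and Mirg in 10 of 14 (1.19e-05 to 0.102). Direction changed in at least 1 fit for 8 imprinted genes, all uncalled. With a library left out, the log2 fold change ran from -0.16 to 0.0561 for Igf2r, -0.0053 to 0.0655 for Gnas, -0.31 to 0.15 for Usp29, -0.10 to 0.44 for Peg3, -0.14 to 0.0403 for Grb10, -0.15 to 0.0325 for Nap1l5, -0.24 to 0.0077 for Impact and -0.13 to 0.37 for Asb4. For Nap1l5 limma voom gave 0.0097. Likewise the difference in log2 ratio ran from -1.44 to 0.69 for Meg3 over Dlk1, -0.52 to 0.12 for Cdkn1c over Kcnq1ot1 and -0.62 to 0.17 for Asb4 over Peg10. The causes were not tested. The other 22 tested imprinted genes kept their direction in every fit run; Zim1 had no value under the filter of 1 CPM in 3 libraries.

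Deviations of same-numbered samples correlated weakly (0.0926, -0.0404 and 0.078), and those of differently numbered samples ran from -0.1179 to 0.029. The values for replicates 1 and 3 thus lay above every differently numbered value, though all were small. The labels do not give pairs, and the numbers were not taken as such. With the replicate block 321 genes were called, and Rian (adjusted p = 0.0337) and Mirg (adjusted p = 0.0421) were the imprinted genes among them, while Hells lost its call (adjusted p = 0.0539). Low counts limit Mirg, Usp29, Zim1 and Nespas, and the 6 imprinted genes not tested.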

Other observations

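Genes around the imprinted genes were looked at for calls of their own. Within 250 kb of a member, 557 further genes were annotated and 95 tested, with 59 positive log2 fold changes, a median of 0.08, 0 called higher and 2 called lower. Over all genes 53.4% were positive and 2.55% were called, so the number called does not set the neighbours apart. Acat2, beside Igf2r and Airn on chromosome 17, encodes an acetoacetyl-CoA thiolase and had 44.7, 33.1 and 48.4 CPM in GalTKO libraries, against 90.2, 98.1 and 126 CPM in wildtype libraries. The genotypes were far apart (log2 fold change -1.32 ± 0.17, edgeR adjusted p = 0.0101), and the call held with each library left out. Its close paralog Acat3 leaves the placing of some reads uncertain. Its imprinted neighbours did not move with it: Igf2r was at -0.03 ± 0.13 and Airn at 0.62 ± 0.18, neither past the threshold. Gm14287, a processed pseudogene near Nnat on chromosome 2, had 3, 3 and 5 counts in GalTKO libraries, against 111, 91 and 110 in wildtype libraries (-4.69 ± 0.35, adjusted p = 0.000312). A processed pseudogene can share reads with its parent gene, so its count is uncertain.

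Imprinted genes that lie inside another gene were set beside their hosts. Commd1, host of Zrsr1, had 0.27 ± 0.10 (edgeR adjusted p = 0.235), and Zrsr1 had 0.22 ± 0.14. Herc3, host of Nap1l5, had 0.53 ± 0.19 (adjusted p = 0.225), and Nap1l5 had -0.03 ± 0.11. Kcnq1, which Kcnq1ot1 crosses on the opposite strand, had 8.28, 6.17 and 4.997 CPM in GalTKO libraries, against 10.8, 8.58 and 11.3 CPM in wildtype libraries (-0.65 ± 0.21, adjusted p = 0.170). Every GalTKO library was lower for Kcnq1 and higher for Kcnq1ot1, and neither gene passed the test.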
